A study of Mus musculus with 29 samples.

Results

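EC2 is the name the authors' deposited annotation gives to one subtype of the endothelial cells of the mouse brain, the cells that line the blood vessels. Its members were taken as every brain cell whose broad type is endothelial (EC) and whose subtype is EC2. There were 1621 such cells among 7627 endothelial cells and 55268 brain cells in all. The annotation divides the remaining 6006 endothelial cells into EC1 (3126 cells), EC3 (950), EC4 (768), EC5 (526), EC6 (350), EC7 (151), EC8 (105) and EC9 (30). The subtypes were made from the same expression values that are reported here, so every difference between EC2 and the other endothelial cells is a description and carries no test.

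Brain endothelial cells form the blood-brain barrier: tight junctions seal the gaps between neighbouring cells, and transporters and efflux pumps in the cell membrane select what crosses. Wnt signals from the surrounding tissue keep this barrier programme on, and capillary cells carry most of the transporters, while arterial and venous cells carry genes for vessel tone and for the capture of leukocytes. After an ischaemic stroke the barrier leaks, and endothelial cells are known to switch on genes of matrix remodelling, cell shape change and stress.

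The study collected single cells by Drop-seq, in which droplets pair each cell with a barcoded bead and transcripts are read near their 3′ ends, from C57BL/6J mice whose middle cerebral artery had been blocked for a time and reopened (stroke), or which had only the sham surgery. Of the 12 libraries from young males, 8 to 10 weeks old, 4 were sham and 4 stroke, both taken on day 2, and another 4 were stroke brains taken on day 14. The 6 libraries from aged animals, 17 to 20 months old, comprised 2 sham ones from day 2, 1 of each sex, and 3 day 2 stroke ones, of which 1 was male and 2 were female, beside 1 female stroke library from day 14. Each library pooled 4 to 5 hemispheres, and the cells were sorted as leukocytes with high CD45, microglia, and endothelial cells without CD45 and with high Ly6C, so cells with little Ly6C are missed and shares of all cells follow the mixing of the sort. No group carried a transgene or a deletion by the labels, all tissue was digested with papain in the presence of actinomycin D, and there was no sham group at day 14.

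Libraries held 819438 to 5855047 summed counts, and 5 young libraries (sham replicate 1, stroke day 2 replicates 1 and 2, stroke day 14 replicates 1 and 2) stood apart by a median mitochondrial share under 2% in their other endothelial cells. In the stroke day 2 libraries of young mice, a median EC2 cell held 992, 684, 744 and 611 counts in replicates 1 to 4, against 1026, 347, 551 and 419 counts in the other endothelial cells. Of 55174 distinct cell barcodes, 91 occurred in 2 or more libraries, and none was shared between EC2 cells of different libraries (0 barcodes). Nothing states that libraries of a group came from separate surgeries, so the p values below measure the spread between these libraries, which may be technical.

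EC2 was scarce in sham and day 14 brains and common at stroke day 2. In young sham libraries 30 of 546, 18 of 617, 5 of 321 and 1 of 295 endothelial cells were EC2, which is 5.49%, 2.92%, 1.56% and 0.339%. In young stroke day 2 libraries the shares were 47.2% (95% exact binomial interval 42.0% to 52.5%), 59.2% (54.5% to 63.7%), 38.4% (34.2% to 42.9%) and 32.7% (30.0% to 35.5%), from 170 of 360, 271 of 458, 193 of 502 and 383 of 1171 cells. In young day 14 libraries 32 of 674, 5 of 319, 9 of 300 and 1 of 317 endothelial cells were EC2, or 4.75%, 1.57%, 3.0% and 0.315%. Every young day 2 stroke library therefore lay above every young sham and day 14 library, with group means of 44.4% ± 11.5 (SD, n = 4), 2.58% ± 2.21 (SD, n = 4) and 2.41% ± 1.91 (SD, n = 4). The intervals cover counting error only.

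Aged brains had the same order. The aged sham libraries held 22 EC2 cells of 585 in the male (3.76%) and 2 of 238 in the female (0.840%). At stroke day 2 the aged male library held 208 of 325 (64.0%) and the female libraries 158 of 219 (72.1%) and 103 of 204 (50.5%). The single aged day 14 library held 10 of 176 (5.68%), so that library and the sham libraries lay far below the day 2 stroke libraries.

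Within libraries of similar mitochondrial share the order of the young groups held. Among libraries of the lower class, EC2 made up 47.2% to 59.2% of endothelial cells at stroke day 2, 5.49% in the single sham library and 1.57% to 4.75% at day 14. Among those of the higher class the ranges were 32.7% to 38.4%, 0.339% to 2.92% and 0.315% to 3.0%. At stroke day 2 the lower class had the larger EC2 shares, and the part of the mitochondrial class in that gap was not tested. EC1, the largest subtype, made up 60.1% ± 9.59 (SD, n = 4) of the endothelial cells of young mice, EC2 included, in sham, 23.2% ± 4.42 at stroke day 2 and 41.4% ± 12.8 at day 14.

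**Figure D1:**
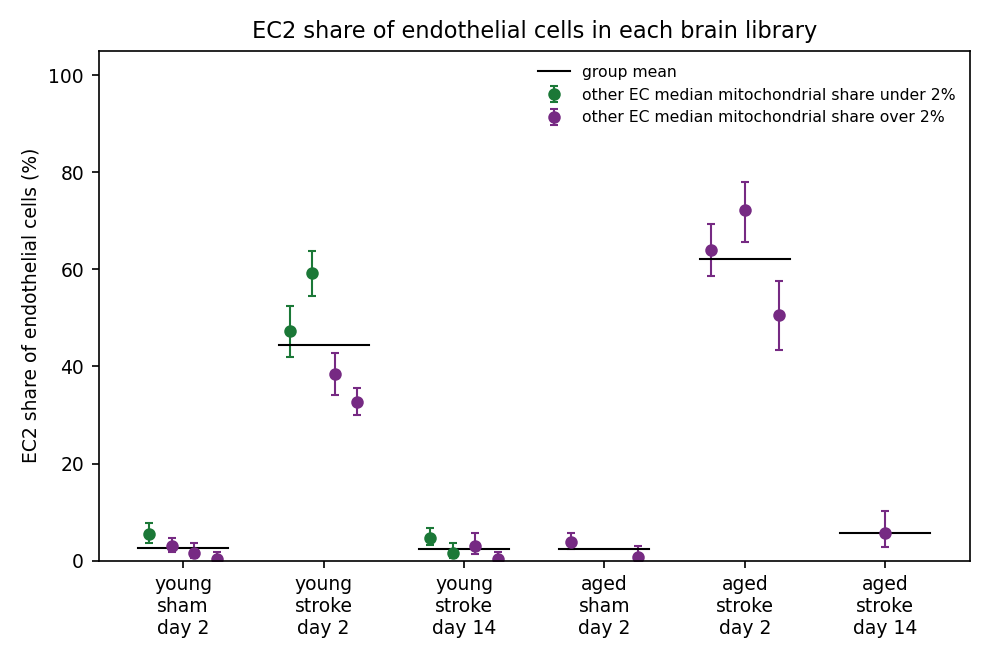
Share of EC2 among endothelial cells (%, vertical axis) in each of the 18 brain libraries, by group; points are libraries with 95% exact binomial intervals, black lines are group means, and colour gives the mitochondrial class of the library. The stroke day 2 libraries sit between 32.7% and 72.1%, and all others lie at or under 5.68%.

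EC2 cells carried endothelial genes and little RNA of other cell types. The 15 listed endothelial identity genes summed to 23036 to 30268 CPM (counts of a gene scaled to a total of 1000000 per class and library) in EC2 of the young stroke day 2 libraries and to 28078 to 33480 CPM in the other endothelial cells. Of 11 microglial markers (the matrix gene Sparc, which endothelial cells also hold, left out) the summed level was 0 to 41.8 CPM against 34225 CPM in microglia, and 12 neutrophil markers summed to at most 29.8 CPM. Cxcr2, Mmp8, Mmp9 and Ltf of the neutrophil list, and Cd3e, Cd3d, Cd79a and Gzma of the lymphocyte list, were at 0. The 8 pan-leukocyte markers summed to 992 to 1459 CPM, of which Srgn alone gave a mean of 1101 CPM, and to 1012 to 1415 CPM in the other endothelial cells. The 12 markers of monocyte-derived cells summed to 346 to 1288 CPM in EC2 and 392 to 1523 CPM in the others. Lymphocyte markers summed to at most 18.3 CPM in EC2 of these young libraries, and the mural, fibroblast, astrocyte, oligodendrocyte, neuron and choroid plexus lists each to at most 165 CPM. EC2 of the aged stroke day 2 libraries reached 459 CPM for astrocyte, 232 for mural, 200 for fibroblast, 178 for microglial, 44.1 for neutrophil and 24.7 CPM for lymphocyte markers. The other endothelial cells of the aged libraries reached 548, 740, 912, 302, 60.1 and 30.0 CPM. Haemoglobin and platelet markers reached 2109 CPM in EC2 of 1 young library against 8936 CPM in other endothelial cells, and their part in the results was not tested. The endothelial label of the cells therefore held against their markers.

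Cldn5 and Timp1 were the markers set for EC2 in this description. Cldn5, the main claudin of brain endothelial tight junctions (GRCm38 chromosome 16, 18776847 to 18778262), was present at 2076, 2033, 3250 and 2416 CPM in EC2 of young stroke day 2 replicates 1 to 4. The other endothelial cells of those libraries held 3096, 3687, 4320 and 4573 CPM, higher in each of the 4. The log2 ratio of EC2 to the others, taken with 10 CPM added to both, was -0.69 ± 0.24 (SD, n = 4). In young sham replicates 1 and 2, which with the aged male sham library were the sham libraries with at least 10 EC2 cells, Cldn5 stood at 6561 and 5546 CPM in EC2, against 5821 and 3679 CPM in the others. In the aged male sham library it was at 2900 CPM in EC2 and 4604 CPM in the others. Among libraries with at least 10 EC2 cells, Cldn5 was lower in EC2 than in the others in the 7 stroke day 2 libraries and the aged male sham library, and higher in the 2 young sham and the 2 day 14 libraries.

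Timp1 encodes a secreted inhibitor of matrix metalloproteinases (GRCm38 chromosome X, 20870166 to 20874735). In EC2 it was at 59.3, 108, 175 and 110 CPM in the 4 young stroke day 2 libraries, against 68.4, 9.41, 16.4 and 27.5 CPM in other endothelial cells, and so it was higher in 3 of 4. The mean log2 ratio was 1.73 ± 1.36 (SD, n = 4), and aged day 2 libraries held 103, 110 and 81.2 CPM in EC2 against 38.9, 67.3 and 0 CPM. In young sham and day 14 EC2 cells no Timp1 count was found among 25828 and 26916 counts, which, at the limit of 3 counts, allows up to 116 and 111 CPM. The EC2 level at day 2, 108 CPM over the pooled libraries, lies below those limits, so a Timp1 difference within EC2 between times was not detectable at this depth. In the other young endothelial cells, where depth is larger, Timp1 had 0 of 839793 counts in sham, allowing 3.57 CPM, and 35.2 CPM at stroke day 2.

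Across the 6 young libraries with at least 20 EC2 cells (sham replicate 1, the 4 stroke day 2 libraries and day 14 replicate 1), 466 of 2271 genes with at least 100 CPM lay on one side of the other endothelial cells in every library, 207 higher and 259 lower in EC2. Among all 7698 genes with at least 20 CPM, 3.35% were higher and 7.61% lower in every one of the 6. The leading higher genes by the median ratio were Arhgap20 (1.46), Vmp1, Ace, S100a6, Anxa2, Snhg1, Serpinh1, S100a11, Ecscr, Txn-ps1 (a processed pseudogene whose reads may belong to its parent Txn1), Atp5g1, Snhg6, Tomm20, Mif and Dctpp1 (1.02), with Ercc1 (1.00) just outside. The leading lower genes were Gkn3 (-3.51), Ackr1, Clu, Itih5, Ptn, Fbln5, Ifit3, Sult1a1, Spock2 and Ndnf (-2.02), with Apod (-1.95) just outside. Since sham and day 14 contribute 1 library each with 30 and 32 EC2 cells, the rest of the description uses the stroke day 2 libraries and a second list, chosen after values were seen, that asks for the same side in all 4 young and all 3 aged ones. That rule left 528 genes, 246 higher and 282 lower, and 11 of its 20 leading genes were on the first list.

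The 10 genes that led EC2 upwards at day 2 were S100a6, Srm, Tubb6, Snhg6, Esd, Ace, Edn1, Cald1, Snhg1 and Nhp2. S100a6, a small calcium-binding protein, was at 483, 437, 376 and 809 CPM in EC2 and at 256, 105, 197 and 131 CPM in other endothelial cells of young replicates 1 to 4, with no overlap and a mean log2 ratio of 1.57 ± 0.82 (SD, n = 4). Edn1 encodes endothelin 1, a peptide that constricts vessels, and stood at 1262, 1777, 1174 and 1660 CPM in EC2 and 794, 699, 539 and 476 CPM in the others (1.22 ± 0.46). Esd, the esterase that handles S-formylglutathione, was at 700, 619, 916 and 785 CPM against 365, 280, 338 and 218 CPM (1.31 ± 0.38).

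The rule of choice fixes that each gene was higher in EC2 in every day 2 library. Srm, the enzyme that makes spermidine, averaged 153 CPM in EC2 and 46.6 CPM in the others (1.53 ± 0.36). Tubb6, a beta-tubulin, averaged 186 and 67.3 CPM (1.37 ± 0.75), and Ace, the angiotensin-converting enzyme of the endothelial surface, 113 and 43.8 CPM (1.25 ± 0.28). Cald1, the actin-binding caldesmon, and Nhp2, a small nucleolar ribonucleoprotein, completed the list with Snhg1 and Snhg6, host transcripts of small nucleolar RNAs, at mean ratios of 1.22, 1.16, 1.18 and 1.37.

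The 10 genes lowest in EC2 at day 2 were Clu, Ackr1, Gkn3, Itih5, Ptn, Rasd1, Slc22a8, Tfrc, Spock2 and Ifit3. Spock2, a secreted proteoglycan, was at 321, 191, 556 and 176 CPM in EC2 of young replicates 1 to 4, against 1397, 1154, 2227 and 1612 CPM in the other endothelial cells (-2.43 ± 0.52, SD, n = 4). Ptn, the growth factor pleiotrophin, was at 118, 95.4, 189 and 97.8 CPM against 797, 1252, 962 and 1199 CPM (-3.00 ± 0.63). That EC2 lay below the others in every day 2 library is likewise fixed by the rule of choice. Itih5, a hyaluronan-binding heavy chain, averaged 27.0 against 294 CPM (-3.04 ± 0.56), Tfrc, the transferrin receptor, 61.4 against 375 CPM (-2.52 ± 0.89), and Slc22a8, an organic anion transporter, 19.3 against 158 CPM (-2.54 ± 0.55).

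For 5 of the 10 genes lowest in EC2, the gap depended on which cells EC2 was set against. Against EC1 alone, Itih5, Ptn, Slc22a8, Tfrc and Spock2 were again lower in all 4 young day 2 libraries, and all 10 leading higher genes were again higher in all 4. Clu, Gkn3 and Ifit3 were lower than in EC1 in 2 libraries, Rasd1 in 3, and Ackr1 in none (0), its mean log2 ratio to EC1 being 1.71 ± 1.38 (SD, n = 4). The high values of those genes sat in other subtypes: Gkn3, an arterial gene, averaged 1428 CPM in EC4 against 9.43 CPM in EC2, and Ackr1, a chemokine-binding receptor of venules, 4635 CPM in EC6 against 68.0 CPM. Ifit3, an interferon-induced gene, averaged 803 CPM in EC5 and 24.9 CPM in EC2.

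**Figure D2:**
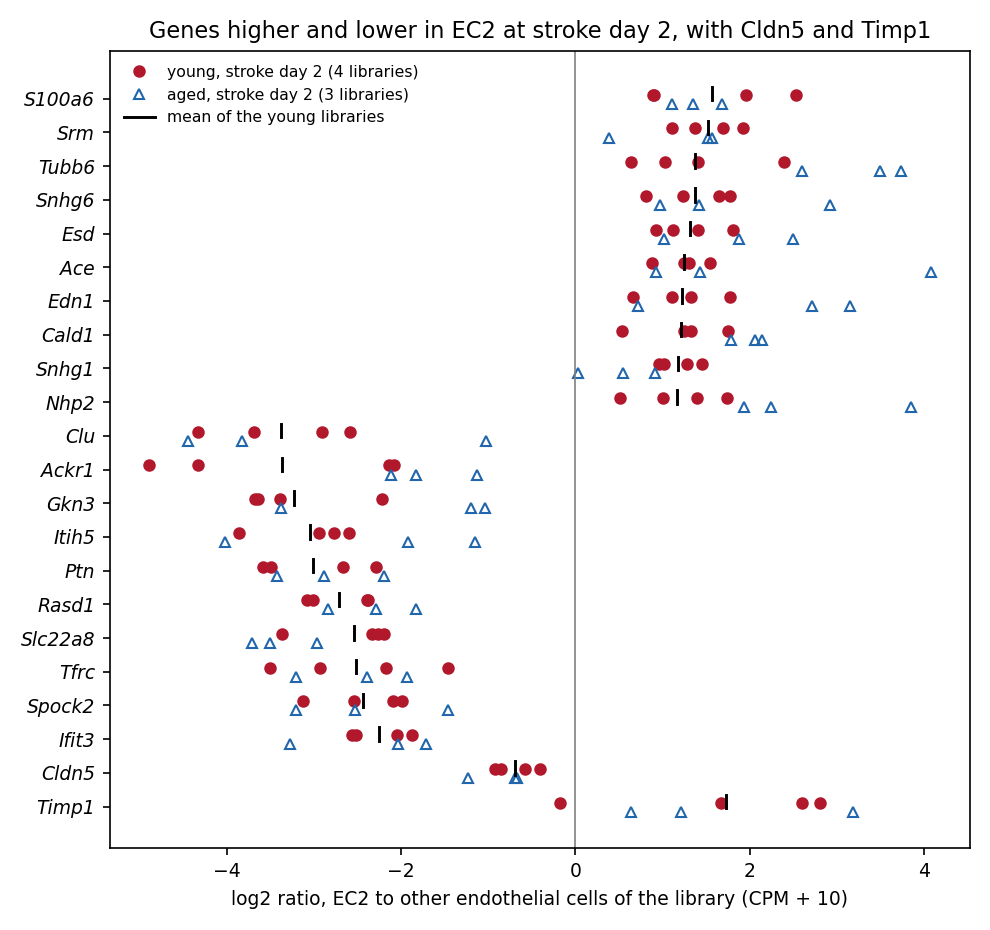
Log2 ratio of EC2 to the other endothelial cells of the same library (horizontal axis, 10 CPM added to both) for the leading genes at stroke day 2 and the markers Cldn5 and Timp1; points are libraries of young and aged mice and black ticks are young means. All points of the 10 leading higher genes lie right of 0 and those of the 10 leading lower genes left of 0 (the choice of genes fixes this), while Timp1 lies left of 0 in 1 young library.

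Set beside each of the larger subtypes at young stroke day 2, EC2 held the highest mean S100a6 (526 CPM against 104 to 196 CPM in EC1, EC3, EC4, EC5 and EC6). It also held the highest mean Esd (755 CPM against 211 to 383 CPM), Col4a1 (772 against 194 to 463 CPM) and Timp1 (113 against 0 to 71.4 CPM). Edn1 was higher in EC4, at 1707 CPM, than in EC2, at 1468 CPM, and Tubb6 was at 177 CPM in EC5 and 186 CPM in EC2. EC2 had the lowest mean Spock2, Itih5, Ptn, Tfrc and Slc22a8 of these 6 subtypes. Over 2271 genes, the mean log2 profile of EC2 correlated with those of EC6 at r = 0.878, EC1 at 0.864, EC5 at 0.815, EC4 at 0.777 and EC3 at 0.712. These correlations run across genes that share libraries, and the subtypes differ in cells (616 EC1 and 126 EC6 cells at day 2), so their order is a description.

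**Figure D3:**
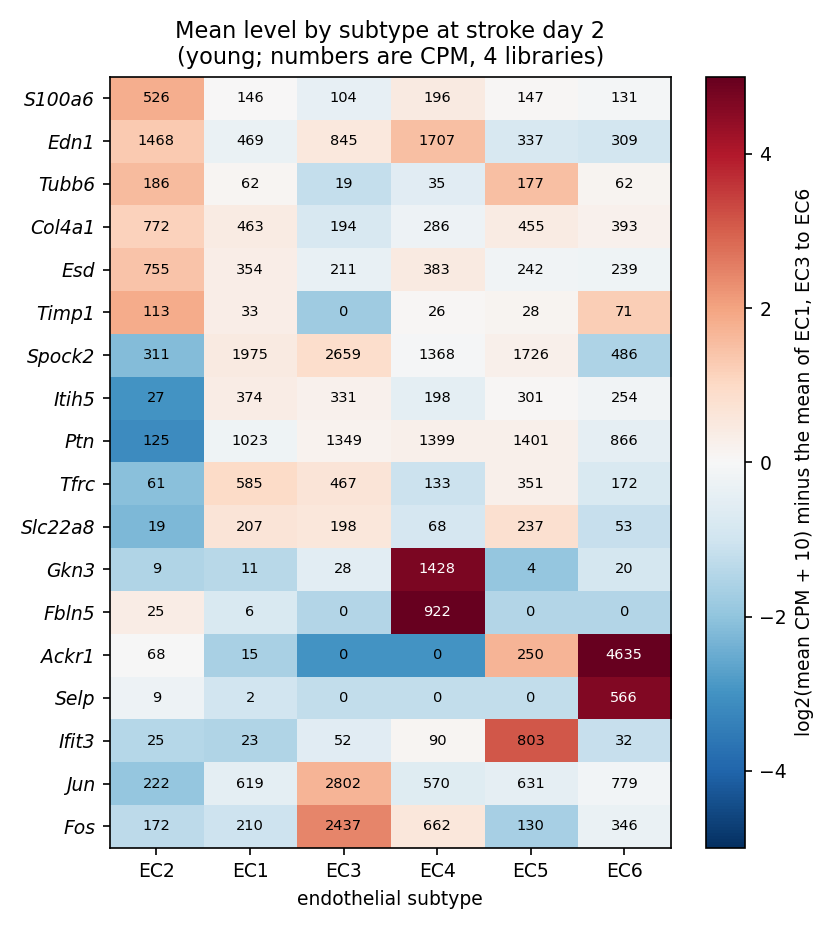
Mean CPM of 18 genes (printed numbers, 4 young stroke day 2 libraries) in EC2 and in 5 other endothelial subtypes; colour is the log2 level, with 10 CPM added, relative to the mean of the other 5 subtypes. S100a6, Esd, Col4a1 and Timp1 are highest in EC2, and Gkn3, Ackr1, Ifit3, Jun and Fos are highest in EC4, EC6, EC5, EC3 and EC3.

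Barrier and capillary genes were low across their lists in EC2 at day 2. In the young stroke day 2 libraries, 11.8% of 7698 genes with at least 20 CPM were higher in EC2 than in the other endothelial cells in all 4 libraries and 18.8% were lower in all 4, with a median log2 ratio of -0.07. The limit of 20 CPM, here and below, is on the mean of either class over the 6 young libraries with at least 20 EC2 cells. Some listed genes, such as Nid2, lie under it at day 2. Shares for the aged libraries use the same 7698 genes. All 11 of 12 capillary genes that reached 20 CPM were lower in all 4 (median -1.81), as were 20 of 22 transport genes (median -1.40), and none of either list was higher (0 genes). The lists share 5 genes (Mfsd2a, Slc16a1, Slc7a5, Slco1c1 and Tfrc), and 4 genes of them (Spock2, Itih5, Tfrc and Slc22a8) led EC2 downwards by the rules above, so neither the lists nor those genes are independent of each other. Mfsd2a, the lipid transporter that restrains transcytosis, was at 56.9, 29.1, 68.6 and 45.7 CPM in EC2 against 132, 113, 266 and 243 CPM. Abcb1a, the efflux pump P-glycoprotein, averaged 353 ± 47.5 CPM against 1219 ± 135 CPM (SD, n = 4), a log2 ratio of -1.76 ± 0.27. Slc2a1, the glucose transporter of the barrier, had a smaller gap, with 843 ± 112 CPM against 1337 ± 167 CPM (-0.66 ± 0.26).

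EC2 also held less Slco1c1, a thyroid hormone and organic anion transporter (-1.86), Slc16a1, the lactate transporter (-1.81), Slc7a5, the large neutral amino acid transporter (-1.52), and Car4, a membrane carbonic anhydrase (-2.12). Against EC1, the largest subtype, 11.2% of genes were higher and 12.9% lower in EC2 in all 4 libraries. All 11 capillary genes and 17 of 22 transport genes were lower than in EC1, with medians of -2.17 and -1.76. In the 3 aged stroke day 2 libraries, where 17.2% of genes were higher and 14.6% lower in EC2 in all 3, the same counts against the other endothelial cells were 11 of 11 and 17 of 22, with medians of -2.29 and -1.71. In the young day 2 libraries the mean log2 level of the capillary list was 7.34 in EC2, 7.55 in EC6 and 8.13 in EC4. It was at least 9.24 in EC1, EC3 and EC5. That of the transport list was 6.99 in EC2, 7.56 in EC4, 7.61 in EC6 and 8.34 to 8.58 in EC1, EC3 and EC5. EC2 was thus lowest on both lists, and EC4 and EC6 also lay below EC1, EC3 and EC5.

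Of the 17 Wnt pathway genes that reached 20 CPM (of 19), 12 were lower in EC2 in all 4 young day 2 libraries and 0 higher, with a median of -0.99. They included Lef1, the transcription factor through which beta-catenin acts (127 against 331 CPM, -1.31 ± 0.44), and Notum, a secreted Wnt inhibitor (-2.02). Against EC1, 9 of the 17 were lower in all 4. The mean log2 level of the list was 5.69 in EC2, 5.93 in EC6 and 6.35 to 6.87 in EC1, EC3, EC4 and EC5. Of 15 junction genes that reached 20 CPM (of 16), 9 were lower in all 4 and 1 higher. Their mean log2 level was 8.08 in EC2, 8.10 in EC6 and 8.42 to 8.65 in EC1, EC3, EC4 and EC5. Tjp1, the scaffold ZO-1 of tight junctions, had a log2 ratio of -1.08 ± 0.23 (SD, n = 4) and Ocln, occludin, -0.71 ± 0.58, whereas Pecam1, the platelet endothelial adhesion molecule, stood at 0.17 ± 0.09 and was the 1 higher gene.

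Endothelial identity genes divided. Of 15, 3 were higher in all 4 and 7 lower. Ly6a, the surface antigen Sca-1, averaged 9826 CPM in EC2 and 7190 CPM in the others (0.45 ± 0.13, SD, n = 4), while Itm2a, a membrane protein of brain endothelium, averaged 1786 and 4257 CPM (-1.22 ± 0.31). Of 13 vascular growth receptor genes, Eng, the TGF-beta co-receptor endoglin, and Notch1 were higher in all 4 (0.51 and 0.16). Flt1, a VEGF receptor (-1.11), Nrp1, its co-receptor (-1.28), Tek, the angiopoietin receptor (-0.89), and Ptprb, the phosphatase that acts on it (-0.77), were lower.

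Genes of the cytoskeleton, annexins and S100 proteins were mostly higher in EC2. Of its 30 genes 27 reached 20 CPM, and 18 were higher in EC2 in all 4 young day 2 libraries while Anxa5 alone (1 gene) was lower, with a median of 0.43. Anxa2, a membrane-binding annexin that pairs with S100a10, was at 1500, 1429, 1544 and 2012 CPM in EC2 against 1052, 555, 793 and 728 CPM (1.07 ± 0.43, SD, n = 4). S100a11 averaged 1204 against 632 CPM (0.98 ± 0.39), Vim, the intermediate filament vimentin, 2679 against 1688 CPM (0.69 ± 0.23), and Msn, moesin, 967 against 640 CPM (0.63 ± 0.35). Against EC1, 17 were higher and 1 lower, and in the 3 aged day 2 libraries 21 were higher than in the other endothelial cells and 1 lower. The list holds S100a6, Anxa2, S100a11 and Tubb6, which led EC2 by the rules above, so those 4 add no independent weight.

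Protein synthesis and folding genes were also mostly higher. All 19 reached 20 CPM, and 14 were higher in EC2 in all 4 libraries and 0 lower (median 0.54). Ncl and Npm1, nucleolar proteins of ribosome assembly, had ratios of 0.71 ± 0.43 and 0.68 ± 0.27 (SD, n = 4), Eif4a1, the helicase of translation initiation, 0.83 ± 0.17, and Hspa5, the endoplasmic reticulum chaperone BiP, 0.54 ± 0.22. Of 10 redox and metal genes that reached 20 CPM (of 13), 5 were higher in all 4 and 1 lower. Txnrd1, thioredoxin reductase (1.02 ± 0.23), Gclm, a subunit of the enzyme for glutathione synthesis (0.88 ± 0.42), Ftl1, ferritin light chain (0.73 ± 0.28), Txn1 (0.74 ± 0.27) and Prdx1 (0.43 ± 0.20) were higher, and Slc40a1, the iron exporter ferroportin, lower (-1.02 ± 0.64). The mean log2 level of the redox and metal list was higher in EC6, at 9.19, than in EC2, at 9.02. In EC1, EC3, EC4 and EC5 it was 7.94 to 8.73.

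Matrix and protease genes were found on both sides, with shares of lower members near the 18.8% of all genes. Of 16 matrix genes at 20 CPM (of 20), 4 were higher in all 4: Col4a1 and Col4a2, the chains of basement membrane collagen (1.06 ± 0.34 and 0.91 ± 0.26, SD, n = 4), Sparc (0.78 ± 0.21) and Serpinh1, the collagen chaperone (0.80 ± 0.44). Sparcl1, a secreted relative of Sparc (-1.79 ± 0.52), Lama5 (-0.91 ± 0.77) and Lamb2 (-0.18 ± 0.15) were lower. Of 11 protease and inhibitor genes (of 20), 4 were higher in all 4, among them the matrix proteases Adamts4 (0.96 ± 0.32) and Adamts9 (1.15 ± 0.96) and the urokinase receptor Plaur (0.79 ± 0.43). Timp3, another metalloproteinase inhibitor (-1.51 ± 0.23), and Plat, the tissue plasminogen activator (-1.74 ± 0.75), were lower in all 4.

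Early response and stress genes, among them transcription factors and regulators known to be induced within minutes of a stimulus, were lower in EC2. Of 18, 17 were lower than in the other endothelial cells in all 4 young day 2 libraries (median -1.44), with Jun at 173, 208, 156 and 352 CPM against 630, 1002, 780 and 1170 CPM and Fos at 146, 87.6, 147 and 306 CPM against 576, 679, 372 and 775 CPM. Against EC1, 6 (33.3%) were lower in all 4 and 0 higher, where 12.9% of all genes were lower and 11.2% higher. The median log2 ratio to EC1 was -0.55. The list's mean log2 level was 7.08 in EC2, 7.37 in EC5, 7.55 in EC1 and 8.11 to 9.77 in EC3, EC4 and EC6. EC3 held by far the most of both Jun and Fos, at 2802 and 2437 CPM on average. The counts of interferon response genes depended on which cells EC2 was set against. Of 26, 18 were lower and 2 higher (Ifitm2 and Ifitm3) than in the other endothelial cells, but against EC1 5 were higher and 3 lower. For 16 class I antigen presentation genes (of 18) the counts were 9 lower and 1 higher, and against EC1 1 and 1.

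For adhesion, arterial and venous genes the counts also depended on which cells EC2 was set against. Of 13 leukocyte adhesion and inflammation genes (of 20), 7 were lower in EC2 than in the other endothelial cells in all 4 libraries and 1 higher, whereas against EC1 0 were lower and 4 higher. Vcam1, an adhesion receptor for leukocytes, averaged 24.3 CPM in EC2 and 706 CPM in EC6, and Selp, P-selectin, 9.48 and 566 CPM. Of 13 arterial genes (of 15), 2 were higher and 7 lower, and against EC1 7 higher and 1 lower. Gja4, an arterial gap junction gene, was higher in all 4 young libraries (187 ± 35.9 against 73.6 ± 32.3 CPM, 1.30 ± 0.68), with aged ratios of -0.57 to 0.47. Of 14 venous genes, 2 were higher and 8 lower, and against EC1 4 higher and 2 lower. The venous and adhesion lists share Ackr1, Vcam1, Icam1, Il1r1, Lcn2 and Lrg1, so their counts are not independent of each other. Ackr1 of these lists and Gkn3, Clu, Fbln5 and Edn1 of the arterial list were leading genes by the rules above. Those genes add no independent weight.

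Among the remaining lists, 13 angiogenic tip genes (of 18) had 2 higher in all 4, Mcam, a melanoma cell adhesion molecule (1.20 ± 0.61), and Plaur, and 1 lower. Glycolysis and hypoxia genes had 5 higher and 4 lower of 15 (of 20), with Aldoa, Ldha, Pkm, Hk1 and Pgm1 higher and Pfkl, Bnip3, Ankrd37 and Ddit4 lower, and against EC1 2 were higher and 4 lower. TGF-beta and mesenchymal genes had 2 higher and 2 lower of 14 (of 23), and fenestrated vessel genes 0 higher and 2 lower of 5 (of 8). Of 18 proliferation genes only 4 reached 20 CPM, and 2 of these were lower. Over all genes 11.8% were higher and 18.8% lower in all 4, and against EC1 11.2% and 12.9%. Tip genes had 15.4% higher and 7.69% lower, and TGF-beta and mesenchymal genes 14.3% and 14.3%. The higher shares of both, and that of glycolysis and hypoxia genes against EC1 (13.3%), lie near those of all genes. These counts are not read as results about the lists.

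In the 3 aged day 2 libraries the counts on one side in all 3 are to be read against the 17.2% higher and 14.6% lower of all genes. Wnt pathway genes had 0 higher and 8 lower of 17, and early response and stress genes 0 higher and 15 lower of 18. Protein synthesis and folding genes had 12 higher and 0 lower of 19, redox and metal genes 7 and 0 of 10, matrix genes 7 and 2 of 16, and protease and inhibitor genes 7 and 2 of 11. Junction genes had 3 higher and 4 lower of 15, with a median of 0.14 where young mice had -0.39. Interferon response genes had 4 higher and 6 lower of 26, and class I antigen presentation genes 3 and 7 of 16. Endothelial identity genes had 2 higher and 6 lower, arterial genes 1 and 7, venous genes 3 and 7, leukocyte adhesion genes 0 and 5, and vascular growth receptor genes 2 and 5. Tip genes had 4 higher and 1 lower, glycolysis and hypoxia genes 5 and 4, TGF-beta and mesenchymal genes 3 and 2, fenestrated vessel genes 2 and 2, and proliferation genes 1 and 2.

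The few EC2 cells of sham and day 14 brains allow levels only of genes with enough counts. Bsg, the membrane glycoprotein basigin that chaperones lactate transporters and is abundant in brain endothelium, was at 16193 and 16475 CPM in EC2 of young sham replicates 1 and 2 (30 and 18 cells), and at 1594, 1237, 3664 and 2153 CPM at stroke day 2. At day 14 replicate 1 (32 cells) it was at 10450 CPM. The other endothelial cells of these libraries held 14519 and 12912, then 5373, 7146, 12429 and 13321, then 13097 CPM. In the aged male sham library (22 cells) Bsg was at 9948 CPM in EC2 and 16300 CPM in the others. So Bsg in EC2 lay above its neighbours in the 2 young sham libraries, below them in the aged sham library and at day 14, and furthest below them at stroke day 2.

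Spock2 followed the same order in EC2 of young mice, with 2455 and 2691 CPM in sham (43.6 and 16.9 counts), 176 to 556 CPM at stroke day 2 and 2053 CPM at day 14 replicate 1. Ptn was at 1841 and 473 CPM, then 95.4 to 189 CPM, then 1088 CPM. Edn1 was at 337 and 792 CPM in sham (6.0 and 5.0 counts), 1174 to 1777 CPM at day 2 and 543 CPM at day 14, and Esd at 54.9 and 0 CPM, 619 to 916 CPM and 173 CPM. These genes were chosen for their ratios in the day 2 libraries, and some sham values rest on fewer than 10 counts. The order is therefore a description. In sham replicate 1, Edn1 and Esd in EC2 were below the other endothelial cells, which held 713 and 143 CPM. In sham replicate 2, Edn1 was above them (792 against 413 CPM) and Esd below (0 against 148 CPM). Both genes were above them in day 14 replicate 1 (543 against 444 CPM and 173 against 114 CPM). The same held in the aged male sham library (691 against 420 CPM and 533 against 121 CPM). Some libraries with fewer than 10 EC2 cells departed from it: Esd was at 623 CPM in sham replicate 3 (5 cells), Ptn at 0 CPM in sham replicate 4 (1 cell) and Spock2 at 173 CPM in day 14 replicate 2 (5 cells). The aged male sham library went against this order for Spock2, at 415 CPM (2.9 counts) in EC2 against 1890 CPM in the others, and for Esd, at 533 CPM (3.8 counts) in EC2.

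Sums over lists use more counts than single genes. The 22 transport genes summed to 13109 and 16174 CPM in sham EC2 cells and to 16580 and 15136 CPM in the other endothelial cells. At stroke day 2 they summed to 5336, 4074, 5129 and 4128 CPM in EC2 against 9182, 11321, 11711 and 11783 CPM, and at day 14 replicate 1 to 13483 against 17554 CPM. The 10 genes lowest at day 2 stood in EC2 at 70.8% and 75.1% of the other endothelial cells in sham, 9.63% to 21.4% at day 2 and 59.5% at day 14. Spock2 and Ptn carry the sham sums of the lower genes, with 2455 and 1841 of 5304 CPM in replicate 1. Other genes of that list lay on both sides of the other endothelial cells there. Slc22a8 was at 280 against 232 CPM, Gkn3 at 113 against 513 CPM, Rasd1 at 56.1 against 291 CPM, Clu at 112 against 273 CPM and Itih5 at 223 against 474 CPM, each on fewer than 5 counts in EC2, and Itih5 was above them in replicate 2 (633 against 504 CPM). Ackr1 and Ifit3 had 0 counts in EC2 of replicate 1, where the other cells held 58.2 and 38.4 CPM, levels at which no difference was detectable at this depth. The 10 highest stood at 85.2% and 136%, then 177% to 389%, then 176%. In the libraries with fewer than 10 EC2 cells, the lower genes stood at 61.6% and 70.6% in sham replicates 3 and 4 (5 and 1 cells) and at 8.17%, 32.1% and 63.4% in day 14 replicates 2 to 4 (5, 9 and 1 cells). The higher genes stood at 182% in the aged male sham library and at 234% in day 14 replicate 2, both within the day 2 range. Since these genes were chosen for their ratios in the day 2 libraries, the choice favours a larger distance there, and the sums show no difference between groups by themselves. In the aged male sham library (22 cells) the transport sum was 5733 CPM in EC2 against 11813 CPM, lower than in the young sham libraries, and the lower genes stood at 43.7%.

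**Figure D4:**
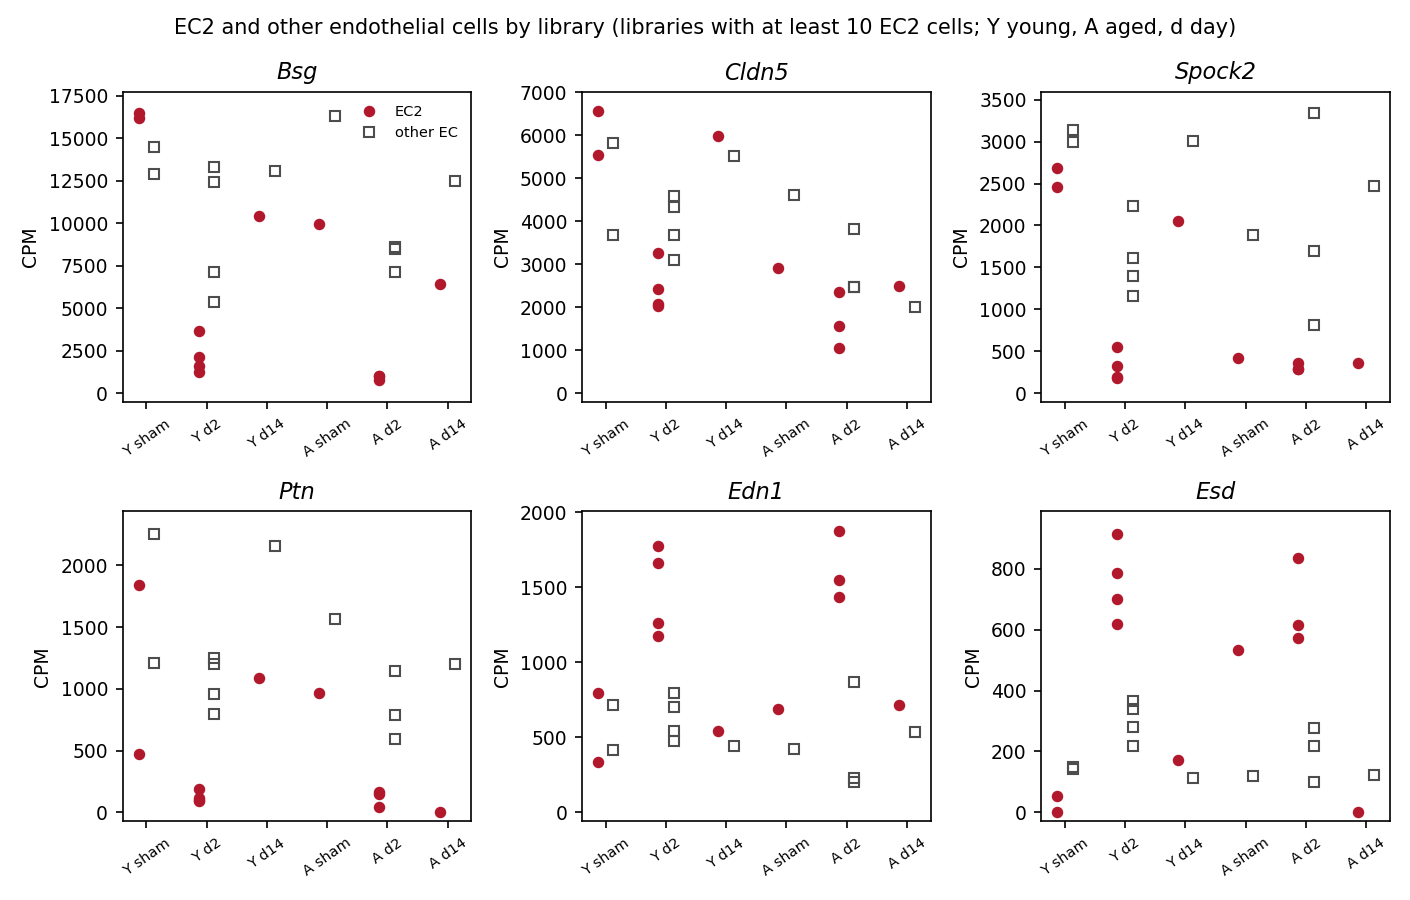
CPM of 6 genes (vertical axes, linear) in EC2 (red points) and in other endothelial cells (open squares) of each library with at least 10 EC2 cells, by group. Young sham EC2 cells hold Bsg at 16193 and 16475 CPM, and young stroke day 2 EC2 cells at 1237 to 3664 CPM.

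A test of stroke within EC2 was possible only in part. With at least 20 EC2 cells a library, sham and day 14 each kept 1 library, so the comparisons within EC2 were not fitted at that minimum. With at least 10 cells, 2 sham and 4 stroke day 2 libraries could be fitted with edgeR's quasi-likelihood test, and 0 of 4626 genes (0.0%) passed an adjusted p under 0.05. At an unadjusted p under 0.05 there were 713 genes, and DESeq2 called 31. The values nearest to the threshold among the leading genes were Esd, with a log2 fold change of 4.86 ± 0.84 (SE, adjusted p = 0.172), Ptn, with -2.74 ± 0.52 (adjusted p = 0.174), and Spock2, with -2.29 ± 0.48 (adjusted p = 0.211).

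In the same edgeR fit Bsg had a log2 fold change of -2.12 ± 0.51 and Edn1 of 2.35 ± 0.56, both at an adjusted p of 0.222. The median over all genes tested was 0.61 with TMM scaling and -0.04 with library size alone, so these values shift together by that amount. The leading genes were chosen on the EC2 levels of the same 4 day 2 libraries, so their values here describe them and support nothing. Of the 10 leading higher genes at day 2, 10 had positive values, and of 6 leading lower genes that could be tested, 5 had negative ones. Over all 4626 genes, 70.6% had positive values. The lists in this fit had 0 genes called: 15 of 20 transport genes and 11 of 14 Wnt genes had negative values, with medians of -1.14 and -1.01, and 24 of 26 cytoskeleton, annexin and S100 genes and 19 of 19 protein synthesis and folding genes had positive ones, with medians of 1.55 and 1.5.

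The other endothelial cells show how the same genes stood outside EC2. Their day 2 levels are the denominator of the ratios that chose the leading genes, so these values describe those genes and do not bear independently on the choice. Between stroke day 2 and sham, 55 of 4941 genes (1.11%) passed in edgeR's quasi-likelihood test, 30 higher and 25 lower. Of 13 genes leading EC2 upwards that could be tested there, 13 had positive values with a median of 1.18, where all genes had a median of 0.01. Of the 10 leading higher genes of the second list 8 could be tested, and 7 had positive values with a median of 0.83. Ecscr, an endothelial surface protein of cell migration, rose by 1.58 ± 0.26 on the log2 scale (SE, adjusted p = 0.0133), and Vmp1, a membrane protein of autophagy, by 1.66 ± 0.34 (adjusted p = 0.0343). From the second list Tubb6 rose by 3.42 ± 0.68 (adjusted p = 0.0323) and Esd by 1.13 ± 0.25 (adjusted p = 0.0425).

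Of the genes leading EC2 downwards, Spock2 fell in the other endothelial cells too, by edgeR at -1.05 ± 0.24 on the log2 scale (SE, adjusted p = 0.0470), and its level was lower still in EC2 at day 2. Ackr1 (3.63 ± 0.71, adjusted p = 0.0323) and Ifit3 (1.72 ± 0.37, adjusted p = 0.0412) rose in the other endothelial cells. Abcb1a fell by 1.10 on the log2 scale (adjusted p = 0.0412) as 1 of 2 transport genes called of 22, and 5 of 26 interferon genes rose, with 0 lower, against 1.11% of all genes called in either direction. The call count rests on single libraries: it was 0 without sham replicate 2, 3 or 4 or without stroke day 2 replicate 1, and 240 without sham replicate 1. EC1 made up 61.6% ± 8.57 (SD, n = 4) of these cells in sham and 42.1% ± 4.43 at stroke day 2. EC5, where Ifit3 was highest, made up 4.63% ± 1.45 in sham and 12.9% ± 4.76 at stroke day 2, and EC6, where Ackr1 was highest, 3.78% ± 1.89 and 9.87% ± 3.26. The part of this subtype makeup in the values above was not tested.

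At day 14 against sham the other endothelial cells had 0 of 4941 genes called in edgeR (0.0%), 316 at an unadjusted p under 0.05 and 8 by DESeq2. Whether the gap between EC2 and the other endothelial cells differed between day 14 and day 2 could be tested in edgeR with library as a block, with 1 day 14 library (32 EC2 cells) against 4. The spread between day 14 libraries is then not measured, and that library is assumed to vary like the day 2 ones. Of 7788 genes 6 passed (0.077%), all lower at day 14 relative to the median of all genes of -0.78. They were Cxcl12, the chemokine CXCL12, which was at 846 CPM in EC2 at day 14 against 866 to 1272 CPM at day 2, Hsp90b1, an endoplasmic reticulum chaperone (438 against 921 to 2543 CPM), Cyr61, a secreted matrix protein with 0 counts in EC2 at day 14, and 3 ribosomal protein genes. DESeq2 called 0 genes, and with library size alone the test called 8 other genes, all higher at day 14. The 6 genes kept their sign in 11 of 11 alternatives, of which the minimum of 10 cells repeats the main fit. These values do not show a difference between the times.

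Age was set against EC2 at stroke day 2, with 3 aged and 4 young libraries. All young libraries are male and 2 of the 3 aged ones are female, and the young and aged data have different gene tables, so age cannot be told apart from the way those tables were made, and only in part from sex. All 3 aged libraries were in the higher mitochondrial class, against 2 of the 4 young ones. The part of that class in the age gap below was not tested. In EC2 alone 0 of 3408 genes (0.0%) passed in edgeR, 344 lay under 0.05 before adjustment, and DESeq2 gave 6 calls. With sex as a term there were also 0 calls, and 227 genes lay under 0.05 before adjustment. Ackr1 had a log2 fold change of 2.20 ± 0.62 (SE, adjusted p = 0.304) and Mt2 of 2.27 ± 0.59 (adjusted p = 0.269). The values of Esd (-0.16 ± 0.25), S100a6 (-0.04 ± 0.31), Edn1 (0.12 ± 0.27) and Spock2 (0.03 ± 0.37) were each smaller than their SE, and that of Ackr1, also a leading gene, was not. Negative values were found for 10 of 15 leading higher genes of the first list (median -0.39) and 6 of 10 of the second (-0.10). The same held for 16 of 18 protein synthesis and folding genes (-0.29) and 7 of 8 capillary genes (-0.38). Of 14 early response and stress genes, 10 were positive (0.53). Over all genes 46.7% were positive (median -0.04).

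The gap between EC2 and the other endothelial cells differed between aged and young libraries for 3 of 4483 genes (0.0669%) in edgeR with library as a block. DESeq2 called 0 genes. Mt2, a metallothionein that binds zinc and copper, was at 406, 413, 154 and 769 CPM in young EC2 against 267, 605, 313 and 487 CPM in the others. In aged mice it was at 4325 CPM in the male and 960 and 1028 CPM in the females, against 927, 468 and 344 CPM. Young libraries thus had EC2 on either side of the others and aged ones had it above in 3 of 3, and the gap was larger in aged mice by 1.66 ± 0.29 on the log2 scale (SE, adjusted p = 0.000617).

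Mt1, its neighbour on chromosome 8, was at 575, 427, 368 and 1109 CPM in young EC2 against 328, 872, 614 and 1097 CPM. In aged EC2 it was at 3953, 809 and 997 CPM against 1440, 458 and 422 CPM, a gap larger by 1.38 ± 0.28 (edgeR adjusted p = 0.0057). Bsg went the other way, with 777, 1011 and 1003 CPM in aged EC2 against 8579, 7153 and 8483 CPM, and its gap differed by -1.04 ± 0.22 (adjusted p = 0.0083). All 3 kept their direction in 15 of 15 alternatives, and Mt2 was called in 12, Mt1 in 10 and Bsg in 8 of them. Among these, the minimum of 10 cells keeps the same libraries and repeats the main fit, so it adds no weight. Without young replicate 3 there were 0 calls, without young replicate 4 there were 6, without the aged male library 1, and without the second aged female library 5.

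**Figure D5:**
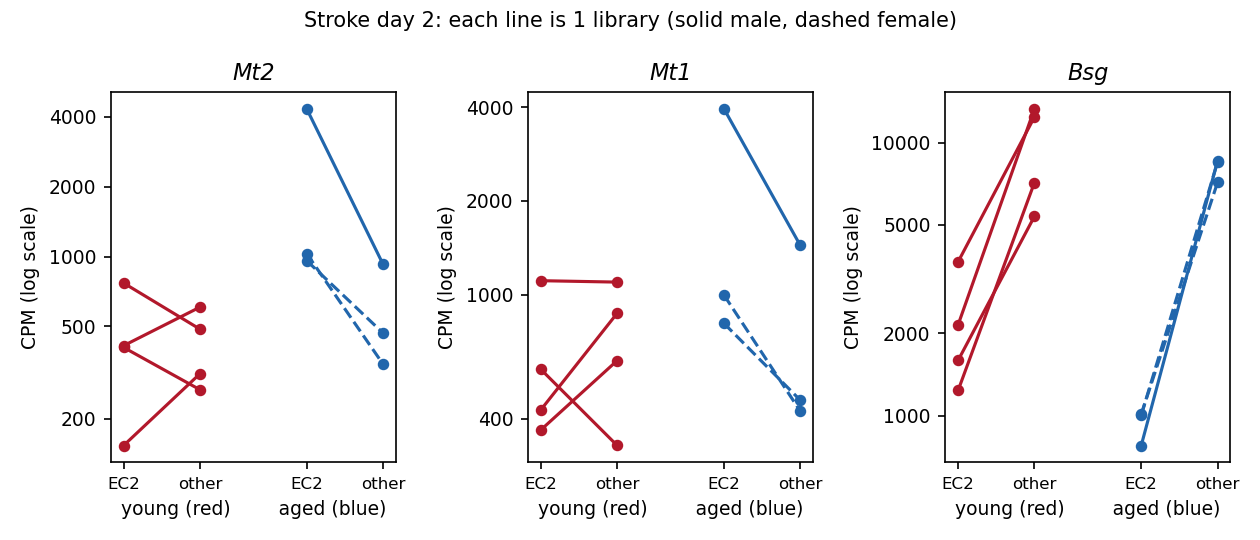
CPM (vertical axes, log scale) of Mt2, Mt1 and Bsg in EC2 and in the other endothelial cells at stroke day 2; each line joins both classes of 1 library, red for young and blue for aged, solid for male and dashed for female. Mt2 and Mt1 are higher in EC2 in all 3 aged libraries and on either side in the 4 young ones, and Bsg is lower in EC2 in all 7.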

How the data were processed

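Brain cells of 18 Drop-seq libraries were analysed from the authors' deposited tables. These hold expected counts per gene and cell, which are fractional, and the authors' deposited metadata give for each cell the count of genes found, the percent of counts from mitochondrial genes, and cell type codes at a broad and a subtype level. Per the submitters' processing notes, the build is mm10 and Seurat was used; the counting tool and the cell filters are not given in the sources used here. The young data list 19704 genes and the aged data 27514 genes, and age comparisons used genes in both. The number of genes found per cell was not used further. Gene positions are from the GENCODE annotation of GRCm38.

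Expected counts were summed per library over EC2 cells and over all other endothelial cells, and given as CPM, scaled to a total of 1000000 per class and library. Libraries are the replicates. Ratios of EC2 to other endothelial cells are log2 with 10 CPM added, within a library of at least 20 EC2 cells. For tests, edgeR 4.0.16 and its quasi-likelihood method were run on the rounded sums (TMM scaling, filterByExpr) in R 4.3.3; tests are two-sided, with Benjamini-Hochberg adjustment over all genes tested and a threshold of 0.05. SE is the log2 fold change over the square root of F. The fit of other endothelial cells held the 12 young libraries. The comparisons of EC2 with at least 10 cells and of age were added after seeing the data, as were the second list of leading genes, the mitochondrial classes and the leukocyte filter without Srgn. The members and the gene lists were chosen with earlier results of these data known.

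Named genes were the 15 highest and 10 lowest ratios with the same sign in every young library used and at least 100 CPM in the higher class, then members of 22 function lists and 12 marker lists, and genes called in a test with at least 50 CPM. Left unnamed were predicted genes, genes of haemoglobins, immunoglobulins, ribosomal proteins, mitochondria and T cell receptors, and genes that another cell type of at least 500 cells holds at over 10 times the EC2 level. Values of some single genes counted in the lists are not reported here. Doublets were not removed: Scrublet marked 20 of 55268 cells (0.0362%), too few to have worked. Alternatives were DESeq2 1.42.0, library size without TMM, no filter, rounding up per cell, other cell minimums, the replicate number as a block, cells with leukocyte counts left out, and each library left out. On counts simulated for other endothelial cells at stroke day 2 against sham (4673 genes, 200 changed), edgeR recovered 35.5% of changes of 1 and 96.7% of 2 on the log2 scale; for the age gap between EC2 and other cells (4131 genes) it recovered 5.38% and 52.6%.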

Additional observations from a re-analysis of the deposited data

Results flagged for a closer look

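Txn-ps1 in EC2 stood at 200.9 CPM in young stroke day 2 replicate 2, far from the other 3 libraries of its group (42.2 to 56.3 CPM). Of 39 groups of values examined for such a distant library this was the 1 found, where chance gives about 1 in 20, or 1.95.

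The gap between EC2 and the other endothelial cells differed between aged and young libraries at stroke day 2 in edgeR's interaction test for Mt2 (log2 difference 1.66), Mt1 (1.38) and Bsg (-1.04). DESeq2 called 0 genes. Age cannot be told apart there from the different gene tables, and only in part from sex and mitochondrial class. The aged male library had the highest Mt2 (4325 CPM) and Mt1 (3953 CPM) in EC2.

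By edgeR with TMM scaling the same gap passed the threshold between day 14 and day 2 for Cxcl12 (log2 difference -1.99), Hsp90b1 (-2.34) and Cyr61 (-9.77). For Cyr61 the fitted value is no bound, since EC2 at day 14 had 0 counts of it. One day 14 library, with 32 EC2 cells, carries these values, its spread is not measured, DESeq2 called 0 genes, the median over all genes was -0.78, and with library size alone none of the 3 passed (adjusted p = 0.621, 0.520 and 0.402).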

How the results depend on the processing

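The EC2 shares of the young groups moved by less than the spread between libraries in 21 of 21 alternatives. Of the leading ratios, 5 turned when EC2 was set against EC1 alone: Gkn3 to 0.22, Ackr1 to 0.68, Clu to 1.04, Fbln5 to 0.57 and Ifit3 to 0.016. The 466 genes on one side in every library became 957 with cells of at least 500 counts (4 libraries), 1068 with the young stroke day 2 libraries alone, and 521 to 703 with a library left out.

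For other endothelial cells at stroke day 2 against sham, the 55 calls became 109 with DESeq2, 204 without the filter on low counts, 91 with counts rounded up per cell, 91 with the mitochondrial class as a term, 9 without cells with leukocyte counts (47 where Srgn was not counted) and 0 to 240 with a library left out. At day 14 against sham, 0 calls became 8 with DESeq2, 143 without the filter, 13 with counts rounded up, 2 with the mitochondrial term and 0 to 1 with a library left out. For EC2 at stroke day 2 against sham, 0 became 31 with DESeq2, 12 with library size without TMM, 99 without the filter and 0 to 22 with a library left out; a lone sham library is then assumed to vary like the others. For EC2 of aged against young mice, 0 became 6 with DESeq2, 64 without the filter and 0 to 2 with a library left out. For the age gap of EC2, 3 became 0 with DESeq2, 5 without cells with leukocyte counts, 1 with cells of at least 500 counts and 0 to 6 with a library left out. For the day 14 gap, 6 became 0 with DESeq2, 54 without cells with leukocyte counts and 0 to 6 with a library left out, and library size without TMM gave 8, all higher. The cause of these shifts was not tested.

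Same-numbered sham and stroke libraries of young mice had correlations from -0.148 to 0.172 in other endothelial cells, and differently numbered ones from -0.417 to 0.261. The values show no sign of pairing by number there, but with such overlap they cannot exclude it. Same-numbered libraries of stroke day 2 and day 14 correlated positively in 4 of 4 pairs (0.169 to 0.480). Differently numbered ones ranged from -0.378 to 0.252. These ranges overlap, so the values do not settle whether the numbers pair those libraries. The day 14 gap has 1 day 14 library, and its fit holds library as a block. With the replicate block the calls were 63 for other endothelial cells at stroke day 2, 1 at day 14, 7 for EC2 at stroke day 2 and 19 for EC2 of aged against young mice. The alternative without Scrublet-marked cells was not run, and tests within EC2 with at least 20 or 40 cells against sham or day 14 could not be fitted. In sham and day 14 depth limits EC2 to 25828 and 26916 counts in all.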
